A study of Mus musculus with 32 samples.

Results

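The oxidative phosphorylation subunits encoded in the nucleus were followed at the RNA level in mouse liver. They were taken by gene symbol from the annotation: protein-coding genes named Nduf with a subunit letter and a number (complex I), Sdha to Sdhd (complex II), Uqcr (complex III), Cox4 to Cox8 (complex IV) and Atp5 (complex V), without pseudogenes and without the Ndufaf assembly factors. The count table held 84 such genes of 20076, of which 38 belonged to complex I, 4 to complex II, 8 to complex III, 17 to complex IV and 17 to complex V. Of these, 79 had enough counts to be tested, and the other 5, Ndufa4l2, Cox4i2, Cox6b2, Cox7b2 and Atp5g2, were not. The symbol rule puts some genes with a complex although their products are now seen elsewhere, such as Ndufa4, Atp5s and Cox7a2l, and it leaves out Cyc1, a core subunit of complex III.

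The respiratory chain takes electrons from NADH at complex I and from succinate at complex II, passes them through ubiquinone to complex III and through cytochrome c to complex IV, where oxygen is reduced. Complexes I, III and IV pump protons across the inner mitochondrial membrane, and complex V, the ATP synthase, lets them return and makes ATP. Most subunits are encoded in the nucleus and imported, while a few core subunits of every complex but complex II are encoded on mitochondrial DNA. In liver the chain oxidizes the NADH and reduced flavoproteins that come from fatty acid beta-oxidation, the pathway to which medium-chain acyl-CoA dehydrogenase (MCAD, gene Acadm) belongs and on which the liver relies in fasting.

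Livers came from male C57BL/6J mice that were MCAD-deficient (labelled Acadm-knockout, here KO) or wild type (WT, littermates according to the methods). Mice of each genotype had received a low-fat (LF) or a high-fat (HF, palm-oil-based) semisynthetic diet for 6 weeks and were either fed or fasted for 16 h, which gave 8 groups of 4 mice. The knockout is of the whole body, and the age labels ran from 7.5 to 16 without a unit. The number of reads counted on genes ranged from 2031053 to 4292200 per library, with a median of 2899001. Levels are CPM values (counts scaled to a common library total) after TMM scaling, a difference is on the log2 scale, and a member or gene is called where the edgeR quasi-likelihood test had a Benjamini-Hochberg adjusted p below 0.05 over all 11566 genes tested.

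In total 30 libraries were used. KO HF fasted replicate 4 was left out: the sum over its heart markers was 42461 CPM, where the 30 others reached 372 CPM, and its hepatocyte markers gave 938 CPM, where the 30 others had 46686 to 71651 CPM. WT LF fed replicate 2 was also left out, with a hepatocyte marker sum of 36467 CPM and a stellate cell marker sum of 1316 CPM, where the 30 others reached 638 CPM. KO LF fasted replicate 1 was kept but stood apart: it had the highest level of all 30 libraries in 26 of the 79 members (32.9%) and the lowest in 16 (20.3%), whereas no other library was highest in more than 13 or lowest in more than 9. Ndufa5 for example, an accessory subunit of complex I, was at 524 CPM in it and at 119 to 259 CPM in the 29 others, and Sdhd, a membrane anchor of complex II, at 6.18 CPM against 98.5 to 232 CPM. Over all genes it was highest in 13.6% and lowest in 16.4%, and it also had the highest sums of erythroid (1287 CPM) and endothelial (451 CPM) markers. Sums, called differences and counts of members are therefore also given without it in most comparisons. In bulk liver RNA, fewer hepatocytes and less of a transcript per hepatocyte cannot be told apart.

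The summed level of the 79 tested members was similar in the 8 groups and lay furthest apart between the diets in fasted KO mice. It was 21142 to 22178 CPM in the 4 KO LF fasted mice (mean 21642 ± 425, SD, n = 4) and 17639 to 18832 CPM in the 3 KO HF fasted mice (mean 18130 ± 624, n = 3), and these groups did not overlap. The first mean was 21633 ± 520 CPM without KO LF fasted replicate 1 (n = 3). The other means, in falling order, were 20652 ± 1632 CPM in WT LF fasted, 20044 ± 849 CPM in KO LF fed, 19758 ± 156 CPM in WT LF fed (n = 3), 19656 ± 861 CPM in WT HF fed, 19208 ± 616 CPM in KO HF fed and 18671 ± 560 CPM in WT HF fasted (n = 4 unless given). Neighbouring groups in this order overlapped throughout. The gap between KO LF fasted and KO HF fasted remained with library totals as the only scaling, at 19252 to 20726 CPM against 16997 to 18531 CPM, but the KO LF fed group then had the highest mean, 20837 CPM.

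Complexes I, III, IV and V had their lowest mean sum in the KO HF fasted group under either scaling, and their highest in the KO LF fasted group with TMM scaling but in the KO LF fed group with library totals only. The TMM-scaled sums of KO LF fasted against KO HF fasted mice were 6043 ± 439 against 5127 ± 190 CPM for complex I, 3235 ± 105 against 2616 ± 59.3 CPM for complex III, 3482 ± 108 against 2714 ± 62.2 CPM for complex IV and 7637 ± 293 against 6435 ± 377 CPM for complex V (SD, n = 4 and n = 3). The KO LF fasted means without KO LF fasted replicate 1 were 5845 ± 234, 3243 ± 127, 3464 ± 124 and 7768 ± 161 CPM in the same order, still the highest of the 8 groups. Complex II, which has no subunit encoded in mitochondria and also serves the tricarboxylic acid cycle, differed by less than its spread between these groups, with 1246 ± 138 and 1237 ± 89.0 CPM, or 1313 ± 37.0 CPM in KO LF fasted mice without that library. Its fed means, 1353 to 1392 CPM, were all above its fasted means, 1233 to 1266 CPM, and so they were with library totals only. Without KO LF fasted replicate 1 the highest fasted mean was the 1313 CPM of KO LF fasted mice. Single mice overlapped, with up to 1356 CPM in WT HF fasted and down to 1235 CPM in WT HF fed.

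**Figure D1:**
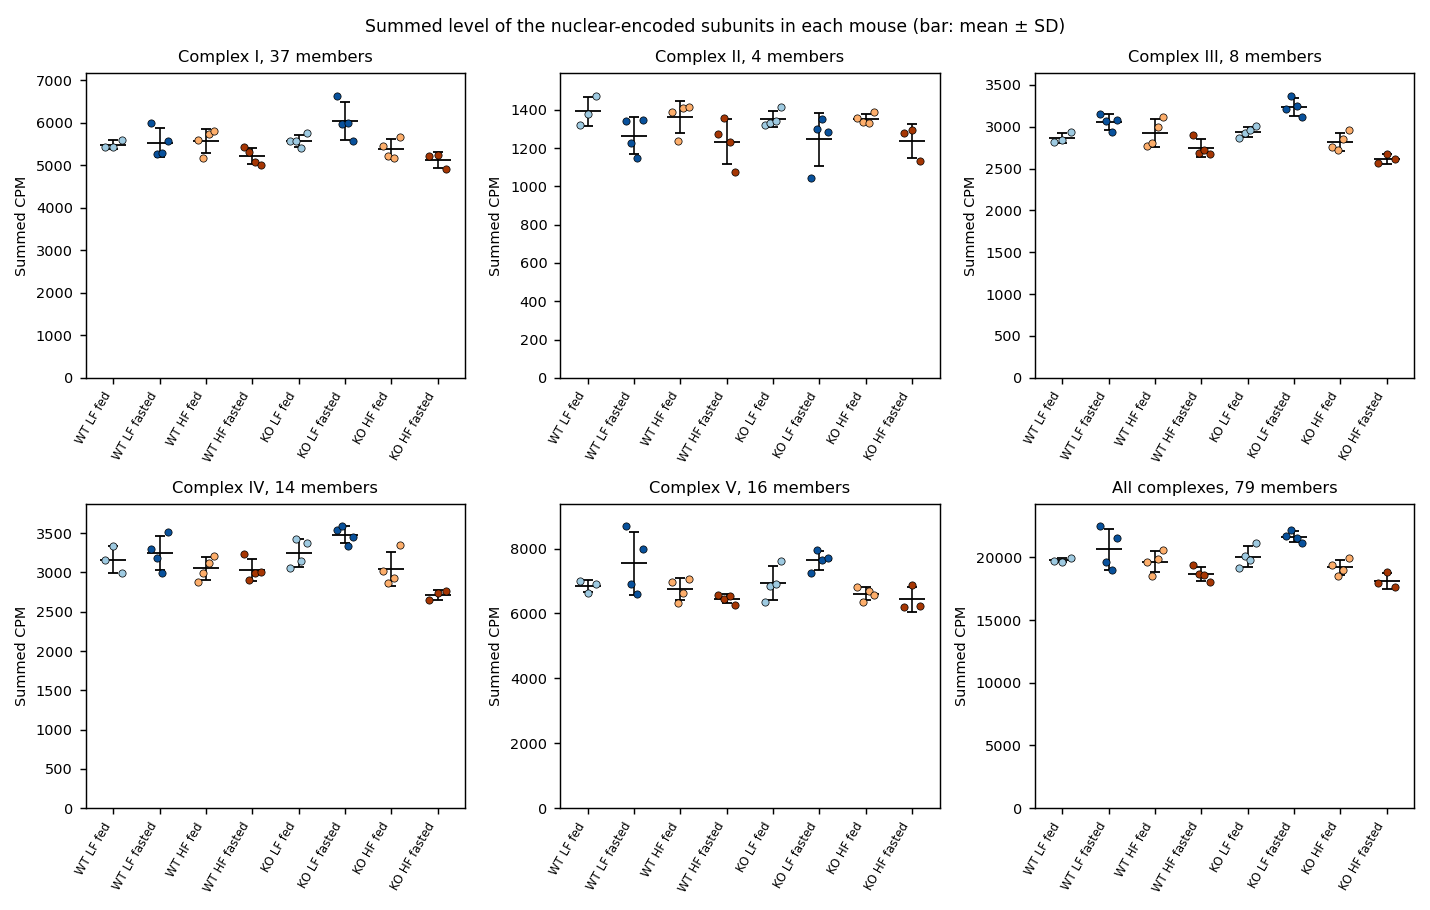
Summed level (CPM, linear axes from 0) of the tested members of each complex and of all 79 in each of the 30 mice, by group, with points for mice and lines for the group mean and SD. For complexes I, III, IV and V the KO LF fasted mice lie highest on average and the KO HF fasted mice lowest.

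The levels of single members ranged widely, from a median of 0.310 CPM for Cox8b to 2946 CPM for Atp5g3, which makes the membrane-embedded c subunit of the ATP synthase. Because the reads come from transcript ends and because 22 of the 84 members share more than 5% of the 50-base windows of their transcript ends with another gene, 10 of them more than 30%, levels of different members were not ranked. The largest shares were 70.1% in Atp5l, 65.2% in Cox7c and 59.2% in Atp5h, and the counts of such members are uncertain. Among the complex I core, Ndufs1 lay between 69.3 and 132 CPM and Ndufv1 between 49.6 and 101 CPM over the 30 mice. Of complex III, the core protein Uqcrc1 lay between 46.1 and 107 CPM, Uqcrc2 between 276 and 468 CPM and the Rieske iron-sulfur protein Uqcrfs1 between 168 and 704 CPM. Of complex IV, Cox4i1 lay between 213 and 386 CPM, Cox8a between 306 and 532 CPM and Cox5b, at its low count, between 0.894 and 9.30 CPM. Of the catalytic ATP synthase head, Atp5a1 lay between 900 and 1169 CPM and Atp5b between 463 and 833 CPM.

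Isoforms of complex IV that are known from heart and skeletal muscle were near 0 in most livers. Cox6a2 had a median of 0.516 CPM, Cox7a1 of 2.36 CPM and Cox8b of 0.310 CPM over the 30 mice, against 2106, 814 and 773 CPM in the library left out for its heart markers. Their highest values among the 30, 38.8, 19.2 and 28.3 CPM, were all in KO HF fed replicate 1, and WT HF fed replicate 4 came next for Cox6a2 (23.5 CPM), Cox7a1 (8.53 CPM) and Cox8b (13.2 CPM). These same libraries had the highest sums of the skeletal muscle markers, 1310 and 709 CPM, against a median of 1.26 CPM, and of the heart markers, 372 and 226 CPM against a median of 14.8 CPM. WT HF fasted replicate 4 came next in muscle markers, with 291 CPM, but KO LF fasted replicate 4 was above it in Cox8b (8.60 against 5.78 CPM) with a muscle sum of 0.782 CPM. KO LF fasted replicate 4 also had the highest adipose marker sum of the 30 libraries, 76.25 CPM against a median of 8.84 CPM. Its adrenal cortex marker sum was 106 CPM, against a median of 0.892 CPM. The part of these libraries in the isoform levels was not tested. The liver isoforms Cox6a1, Cox7a2 and Cox8a had medians of 486, 344 and 397 CPM. The lists of called members below hold none of the muscle isoforms.

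**Figure D2:**
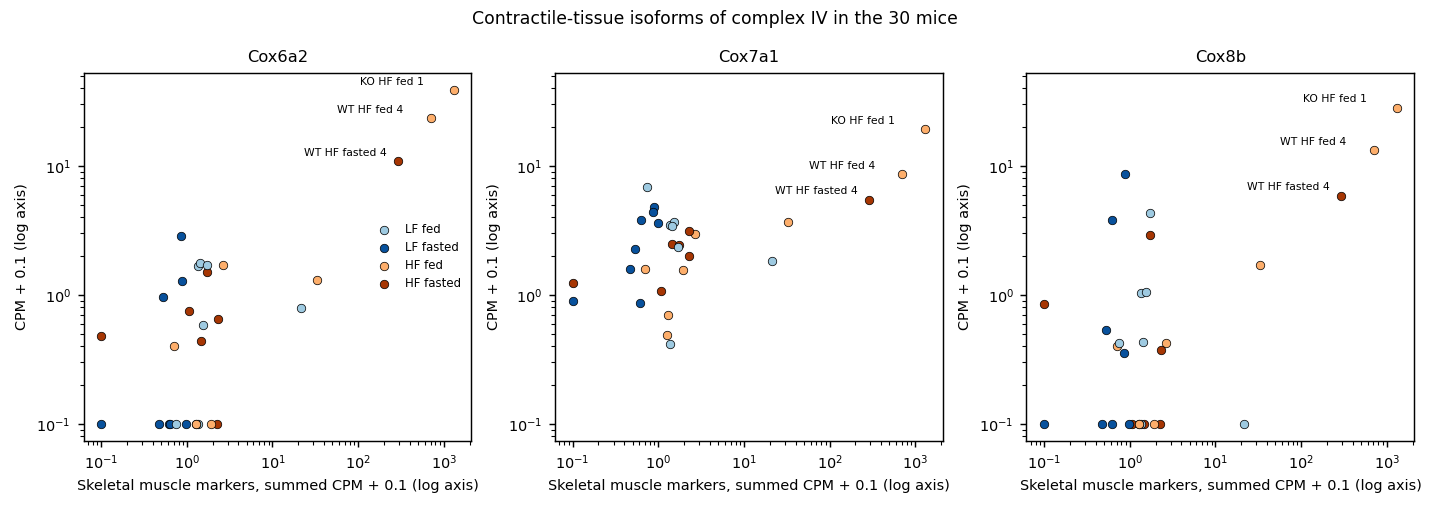
Levels of the muscle isoforms Cox6a2, Cox7a1 and Cox8b (CPM plus 0.1, log axis) against the summed skeletal muscle markers (CPM plus 0.1, log axis) in the 30 libraries, coloured by diet and feeding state. KO HF fed replicate 1 and WT HF fed replicate 4 lie highest on both axes in each of the 3 panels, while the other livers with some isoform signal differ in their muscle marker sums.

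The HF diet was compared with the LF diet as the mean over the 4 combinations of genotype and feeding state. Of the 79 members, 3 fell and 0 rose, where 3.49% of all genes were called (1.24% lower), so that the share called (3.80%) was near the background. The 3 members were Uqcrh, Uqcr10 and Atp5o, the first pair being small subunits of complex III (Uqcrh is the hinge protein that touches cytochrome c1) and the last the oligomycin sensitivity-conferring protein that joins the head and stalk of the ATP synthase. At an unadjusted p below 0.05, 20 of 79 members were lower on the HF diet and 0 higher, where 6.94% of all genes were lower and 8.88% higher, and without KO LF fasted replicate 1 22 were lower and 1 higher. The median difference of the members was -0.094, against 0.0068 over all genes, and 58 of 79 were negative. With library totals as the only scaling no member was called and 9 were lower at an unadjusted p below 0.05, and DESeq2 called 9, all lower. The shares of all genes called in these fits are not given here, so these counts have no background beside them.

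Markers of other tissues stood out in single libraries of both diets. Adrenal cortex markers were highest in KO LF fasted replicates 3 (256 CPM) and 4 (106 CPM), against a median of 0.892 CPM. Adipose markers were highest in KO LF fasted replicate 4 (76.25 CPM) and KO HF fed replicate 1 (70.6 CPM), against a median of 8.84 CPM. Muscle and pancreas markers stood out on the HF diet. The skeletal muscle markers were highest in KO HF fed replicate 1, WT HF fed replicate 4 and WT HF fasted replicate 4, at the sums given above, and the acinar pancreas markers in WT HF fasted replicate 2 (18149 CPM) and KO HF fed replicate 1 (2666 CPM), against a median of 23.1 CPM. Without these 4 libraries, a setting added after the data were seen, 0 members were called, where 1.61% of all genes were, and 17 were lower and 1 higher at an unadjusted p below 0.05. That setting kept KO LF fasted replicates 3 and 4. The differences of Uqcrh, Uqcr10 and Atp5o were then -0.31, -0.29 and -0.33, no smaller than with all libraries, with adjusted p of 0.0863, 0.0714 and 0.0842 by edgeR.

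Uqcrh (ENSMUSG00000063882, chromosome 4, 116066965 to 116075071, GRCm38) ranged from 561 to 1109 CPM in the 15 LF mice, with a median of 718, and from 447 to 663 CPM in the 15 HF mice, with a median of 622. Most LF mice were above the highest HF mouse, but the groups overlapped, and the highest value was that of KO LF fasted replicate 1. The difference was -0.29 (SE 0.08, adjusted p = 0.0271), and it was -0.24 (adjusted p = 0.0252) without that library. Uqcr10 (ENSMUSG00000059534, chromosome 11, 4701973 to 4704342) ranged from 272 to 533 CPM with a median of 330.3 on the LF diet and from 239.8 to 379.8 CPM with a median of 268 on the HF diet. Its difference was -0.28 (SE 0.08, adjusted p = 0.0309), and -0.24 (adjusted p = 0.0310) without KO LF fasted replicate 1. Both complex III subunits thus had overlapping ranges and a lower centre on the HF diet.

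Atp5o (ENSMUSG00000022956, chromosome 16, 91925214 to 91931687) ranged from 208 to 424 CPM with a median of 273 on the LF diet and from 174 to 279 CPM with a median of 229 on the HF diet. Its difference was -0.31 (SE 0.09, adjusted p = 0.0433), and -0.26 (adjusted p = 0.0497) without KO LF fasted replicate 1. Since 40.9% of its windows match other genes, its level is uncertain, and its call held in 18 of the 44 alternative settings, against 28 for Uqcr10 and 34 for Uqcrh. Without KO LF fasted replicate 1 there were 4 calls, because Sdhd, which is near 0 in that library, joined them at -0.34 (SE 0.08, adjusted p = 0.00849). In that fit 4.51% of all genes were called. The count of called members was 1 without KO HF fasted replicate 2, WT LF fed replicate 1 or WT LF fed replicate 3, 0 without KO HF fasted replicate 3 and 5 without KO LF fasted replicate 2.

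The promoters of these 3 members are shown because they fell together and only 1 of them holds a match to a motif known from respiratory genes. Each sequence runs 5′ to 3′ on the gene's strand from 250 bases before to 50 bases after the RefSeq start of GRCm38.p6, at chr4:116075021-116075320 (minus strand) for Uqcrh, chr11:4704295-4704594 (minus strand) for Uqcr10 and chr16:91931581-91931880 (minus strand) for Atp5o. The capitals mark the single match, CCGGAAG read on the other strand.
Uqcrh: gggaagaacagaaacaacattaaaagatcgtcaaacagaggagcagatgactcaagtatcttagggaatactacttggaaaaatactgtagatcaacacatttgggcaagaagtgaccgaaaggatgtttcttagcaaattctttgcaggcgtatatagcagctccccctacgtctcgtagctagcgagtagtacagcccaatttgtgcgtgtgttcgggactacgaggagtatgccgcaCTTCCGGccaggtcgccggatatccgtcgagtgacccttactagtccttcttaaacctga
Uqcr10: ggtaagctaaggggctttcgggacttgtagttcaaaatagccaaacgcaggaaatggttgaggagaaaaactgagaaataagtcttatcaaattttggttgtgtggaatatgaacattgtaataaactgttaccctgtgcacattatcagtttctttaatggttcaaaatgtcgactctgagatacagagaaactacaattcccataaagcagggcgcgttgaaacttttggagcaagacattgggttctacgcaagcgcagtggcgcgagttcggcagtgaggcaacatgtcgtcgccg
Atp5o: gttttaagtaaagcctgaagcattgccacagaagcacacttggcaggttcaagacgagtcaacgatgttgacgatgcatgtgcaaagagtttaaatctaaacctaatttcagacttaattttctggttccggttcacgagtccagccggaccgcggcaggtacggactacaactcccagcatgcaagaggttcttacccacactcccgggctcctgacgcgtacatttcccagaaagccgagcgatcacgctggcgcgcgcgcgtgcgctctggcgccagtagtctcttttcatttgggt

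A RefSeq promoter was found for 69 of the 84 members, 67 by symbol and 2 by a synonym. Of 4 core motifs searched on both strands as exact letters, that of the ETS family (CCGGAAG, read by GABP) stood in 15 of the 69 (21.7%) and in 9.12% of all 27025 promoters. The NRF1 core GCGCATGC stood in 10 (14.5%, against 2.80%), the YY1 core AAGATGGC in 9 (13.0%, against 2.88%) and the estrogen-related receptor core TCAAGGTCA in 2 (2.90%, against 0.407%). At least 1 of the 4 stood in 30 of 69 member promoters (43.5%), against 14.1% of all. These factors are known regulators of nuclear respiratory genes, and the median GC content was 57.3% in the member promoters and 52.7% in all. Of the 10 members called in any comparison here, 2 held a match, Uqcrh and Ndufs8, both to the ETS motif.

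The diet difference was widest in fasted KO mice. There 3 members fell on the HF diet and 0 rose, where 1.68% of all genes were called (0.605% lower). A further 23 members were lower at an unadjusted p below 0.05 only, which makes 26 of 79 lower (13 of complex I, 0 of II, 4 of III, 5 of IV and 4 of V) and 0 higher, where 6.35% of all genes were lower and 6.71% higher. These became 24 lower and 0 higher without KO LF fasted replicate 1, with a median of -0.25. In all 69 of 79 members were negative, with a median of -0.29 against -0.0046 over all genes. The medians were -0.27 for complex I, -0.018 for complex II, -0.30 for complex III, -0.43 for complex IV and -0.26 for complex V. These and the counts by complex include KO LF fasted replicate 1, where Sdhd was at 6.18 and Sdhc at 178 CPM. Its group mates had 162 to 232 CPM of Sdhd and 349 to 394 CPM of Sdhc. The KO HF fasted mice had 126 to 165 and 341 to 433 CPM. Medians by complex are not given without that library. With library totals only, which set the median of all genes to 0.092, the members' median was -0.19 and 13 were lower at an unadjusted p below 0.05.

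The called members were Uqcr10, Ndufab1 and Cox7a2l. Uqcr10 was at 533, 390.9, 347 and 373 CPM in the 4 KO LF fasted mice and at 258, 251 and 239.8 CPM in the 3 KO HF fasted mice. Every HF mouse was below every LF mouse, and the difference was -0.72 (SE 0.16, adjusted p = 0.0124). Without KO LF fasted replicate 1 it was -0.57 (SE 0.15, adjusted p = 0.0386) and the only call left.

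Ndufab1 (ENSMUSG00000030869, chromosome 7, 122085403 to 122101886), the mitochondrial acyl carrier protein that is also a subunit of complex I, was at 131, 68.8, 58.5 and 86.8 CPM on the LF diet and at 45.7, 47.0 and 51.4 CPM on the HF diet. The groups did not overlap, with a difference of -0.84 (SE 0.21, adjusted p = 0.0266), but it was -0.57 (adjusted p = 0.131) without KO LF fasted replicate 1. Of the windows of Ndufab1, 20.1% match other genes. Cox7a2l (ENSMUSG00000024248, chromosome 17, 83501918 to 83517330), a Cox7a-related factor that joins complexes III and IV in supercomplexes, was at 245, 161, 141 and 117 CPM on the LF diet and at 97.9, 109 and 110.4 CPM on the HF diet. Here too every HF mouse was lower, with a difference of -0.65 (SE 0.18, adjusted p = 0.0471), which became -0.40 (adjusted p = 0.207) without that library. The call of Cox7a2l held in 8 of the 45 alternative settings, that of Ndufab1 in 34 and that of Uqcr10 in 39. The number of called members moved with single mice, to 1 without KO HF fasted replicate 1 or 2, to 0 without KO HF fasted replicate 3 and to 5 without KO LF fasted replicate 2. A fit of these 7 mice alone called 0 members by edgeR, with 9 lower at an unadjusted p below 0.05, and DESeq2 on all groups called 8. For these fits too the share of all genes called is not given here.

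Counted by mouse rather than by fit, 17 of 79 members (21.5%) were lower in every KO HF fasted than in every KO LF fasted mouse and 0 were higher, where 4.19% of all genes were lower and 5.16% higher in this way. Without KO LF fasted replicate 1, which is lowest in many members, 30 of 79 were lower and 0 higher, where 7.51% and 8.30% of all genes were. Cox6b1 and Cox6a1 are nuclear subunits of complex IV. Cox6b1 was at 366, 319, 371 and 378 CPM on the LF diet against 241, 249 and 255 CPM on the HF diet, a difference of -0.53 (SE 0.15, adjusted p = 0.0552), and -0.52 (adjusted p = 0.0648) without that library. Cox6a1 was at 592, 536, 532 and 568 CPM against 374, 399 and 435 CPM, a difference of -0.47 (SE 0.14, adjusted p = 0.0904), and -0.44 (adjusted p = 0.127) without it. Both passed the unadjusted but not the adjusted threshold, although no HF mouse reached the lowest LF mouse.

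Core subunits differed among themselves, and none of those named here was called. The lowest differences were -0.58 for Ndufv1, which carries the NADH site (SE 0.18, adjusted p = 0.0899), -0.48 for Cox4i1 (SE 0.16, adjusted p = 0.136) and -0.44 for Uqcrc1 (SE 0.18, adjusted p = 0.253). Nearer to 0 were Atp5b at -0.29 (SE 0.16), Ndufs1 at -0.23 (SE 0.17), Atp5a1 at -0.19 (SE 0.14), Uqcrc2 at -0.17 (SE 0.16), Uqcrfs1 at -0.048 (SE 0.23) and Sdha, the flavoprotein of complex II, at -0.0019 (SE 0.13, adjusted p = 0.999). Of these, Uqcrfs1 moved to -0.33 (SE 0.15, adjusted p = 0.344) without KO LF fasted replicate 1. In fasted WT mice no member was called between the diets, where 1.12% of all genes were, and 7 members were lower and 1 higher at an unadjusted p below 0.05, where 5.41% and 6.86% of all genes were. By DESeq2 and limma voom 0 were called as well. In the fit without KO LF fasted replicate 1, 10 members were lower and 2 higher at an unadjusted p below 0.05. In fasted WT mice 8 of 79 members (10.1%) were lower in every HF than in every LF mouse and 1 was higher, where 3.44% and 3.79% of all genes were. The median of -0.078 in WT turned to 0.029 with library totals only. In fed mice 0 members were called between the diets by edgeR, DESeq2 or limma voom, where 0.0778% of all genes were called in WT and 0.00865% in KO. At an unadjusted p below 0.05 there were 0 of 79 members in WT (5.22% of all genes) and 3 of 79 in KO (7.26%). Without KO LF fasted replicate 1 the fed counts were 1 lower and 0 higher in WT, and 2 lower and 2 higher in KO.

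**Figure D3:**
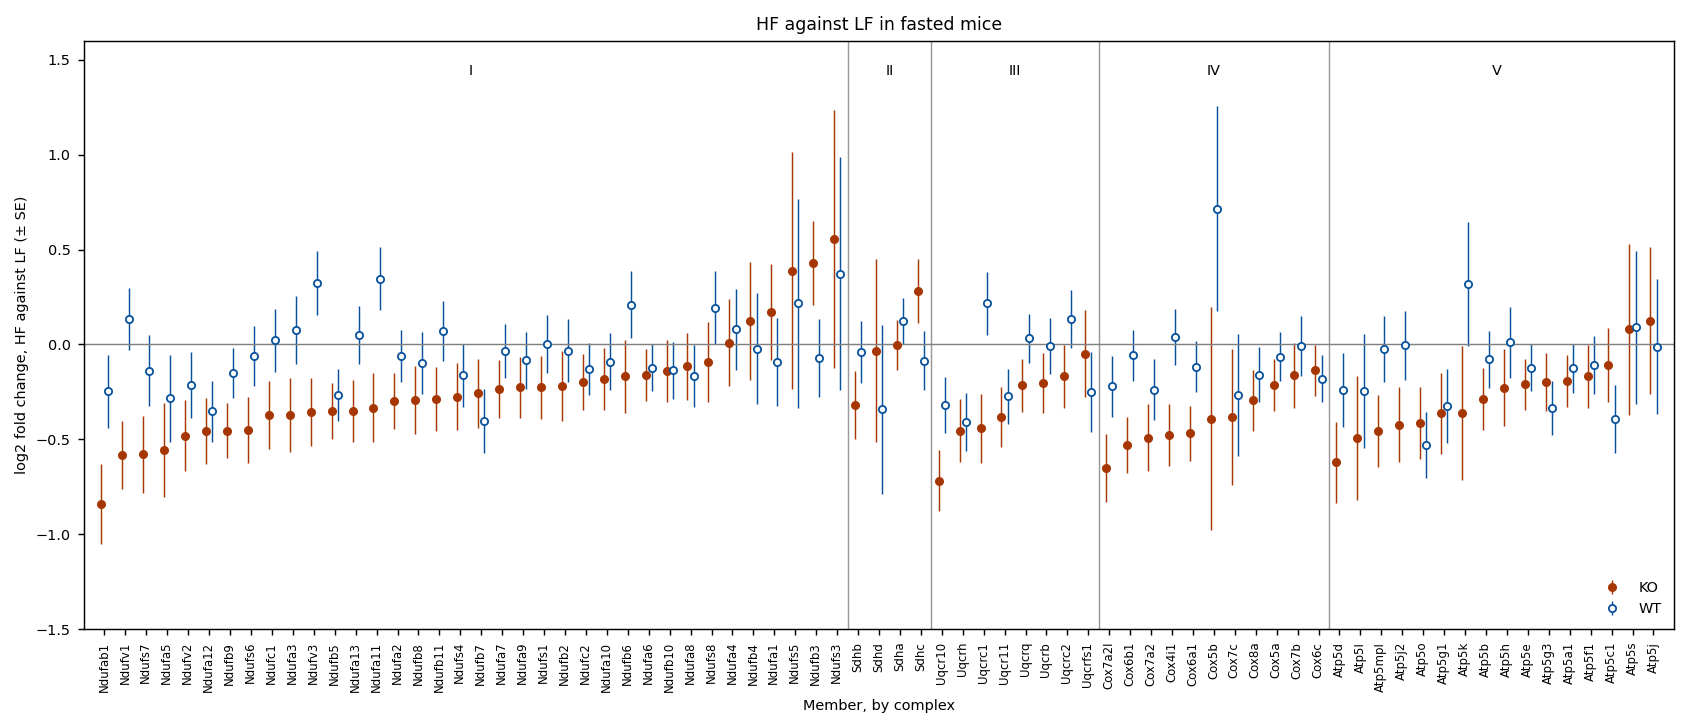
Log2 difference between HF and LF in fasted KO and in fasted WT mice for 75 of the tested members, by complex and sorted by the KO value, with bars of 1 SE, without the near-zero muscle isoforms Cox6a2, Cox7a1 and Cox8b. Most KO points lie below 0 in complexes I, III, IV and V, while WT points scatter around a line slightly below 0.

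Fasting was compared with feeding over the same 4 combinations. Of 79 members 2 rose and 3 fell (6.33%), where 18.9% of all genes were called (9.77% higher, 9.14% lower), a background above the members' share. At an unadjusted p below 0.05, 2 were higher and 4 lower, where 15.1% and 14.4% of all genes were, and without KO LF fasted replicate 1 5 were higher and 7 lower. The median of the members was -0.011, against -0.0022 over all genes. Library totals moved the median of all genes to -0.091 and that of the members to -0.10, and 1 member was then called higher and 10 lower. The share of all genes called under that scaling is not given here.

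Sdha (ENSMUSG00000021577, chromosome 13, 74322254 to 74350280) ranged from 395 to 494 CPM with a median of 469 in the 15 fed mice and from 380.3 to 457 CPM with a median of 396 in the 15 fasted mice. It fell, with a difference of -0.19 (SE 0.06, adjusted p = 0.0330), the groups overlapped, and the call held in 29 of 46 alternative settings, with -0.18 (adjusted p = 0.0252) without KO LF fasted replicate 1. Ndufs8 (ENSMUSG00000059734, chromosome 19, 3908863 to 3912774), an iron-sulfur core subunit of complex I, ranged from 51.3 to 92.6 CPM with a median of 68.4 when fed and from 36.1 to 75.5 CPM with a median of 52.2 when fasted. It fell by 0.37 on the log2 scale (SE 0.10, adjusted p = 0.00629), again with overlap, and its difference was -0.41 (adjusted p = 0.000946) without that library.

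Atp5g1 (ENSMUSG00000006057, chromosome 11, 96068852 to 96075670), one of the genes for the same c subunit as Atp5g3, ranged from 50.9 to 87.5 CPM with a median of 72.3 when fed and from 36.6 to 90.5 CPM with a median of 56.1 when fasted. Its highest fasted value was that of KO LF fasted replicate 1. The difference was -0.37 (SE 0.10, adjusted p = 0.00619), and -0.43 (adjusted p = 0.000454) without that library. Atp5g3 had a difference of 0.11 (SE 0.07, adjusted p = 0.351), so that the isoform genes were not called alike, although the difference between them was not tested. Of the windows of Atp5g1, 36.0% match other genes.

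Cox7a2l and Atp5s rose on fasting. Cox7a2l ranged from 86.8 to 124 CPM with a median of 101 when fed and from 97.9 to 245 CPM with a median of 126 when fasted. Its difference was 0.31 (SE 0.08, adjusted p = 0.00681), and 0.25 (adjusted p = 0.00769) without KO LF fasted replicate 1. Atp5s (ENSMUSG00000054894, chromosome 12, 69724950 to 69744660), also named Dmac2l and related to an assembly protein of complex I, ranged from 1.88 to 11.4 CPM with a median of 4.17 when fed and from 2.65 to 15.6 CPM with a median of 9.63 when fasted. This low transcript had a median of 17 counts per library, overlapping groups and a difference of 0.91 (SE 0.22, adjusted p = 0.00260), or 0.98 (adjusted p = 0.000629) without that library.

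The highest and lowest fasting differences in each complex outline the range. They were 0.67 for Ndufs3 (SE 0.34, adjusted p = 0.181, at 0 to 5.51 CPM) and -0.37 for Ndufs8 in complex I, 0.085 for Sdhd and -0.19 for Sdhb in complex II, and 0.16 for Uqcrfs1 and -0.096 for Uqcrb in complex III. In complex IV they were 0.31 for Cox7a2l and -2.02 for Cox8b (SE 1.22, adjusted p = 0.293), which was highest in the muscle-marked fed libraries above, and in complex V 0.91 for Atp5s and -0.37 for Atp5g1. The catalytic subunits Atp5a1 and Atp5b had 0.018 and 0.012, and Cox4i1 had 0.11. Of the windows of Ndufs3, 53% match another gene, and its median was 7 counts per library, so that its level is uncertain. Of those of Uqcrb, 40.6% match other genes. Without KO LF fasted replicate 1 there were 8 calls of 79, where 21.0% of all genes were called, a background again above the members' share. They were the same 5 members with Uqcrfs1 (0.24, adjusted p = 0.00944), Cox7a2 (-0.21, adjusted p = 0.0120) and Sdhb (-0.22, adjusted p = 0.0371).

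**Figure D4:**
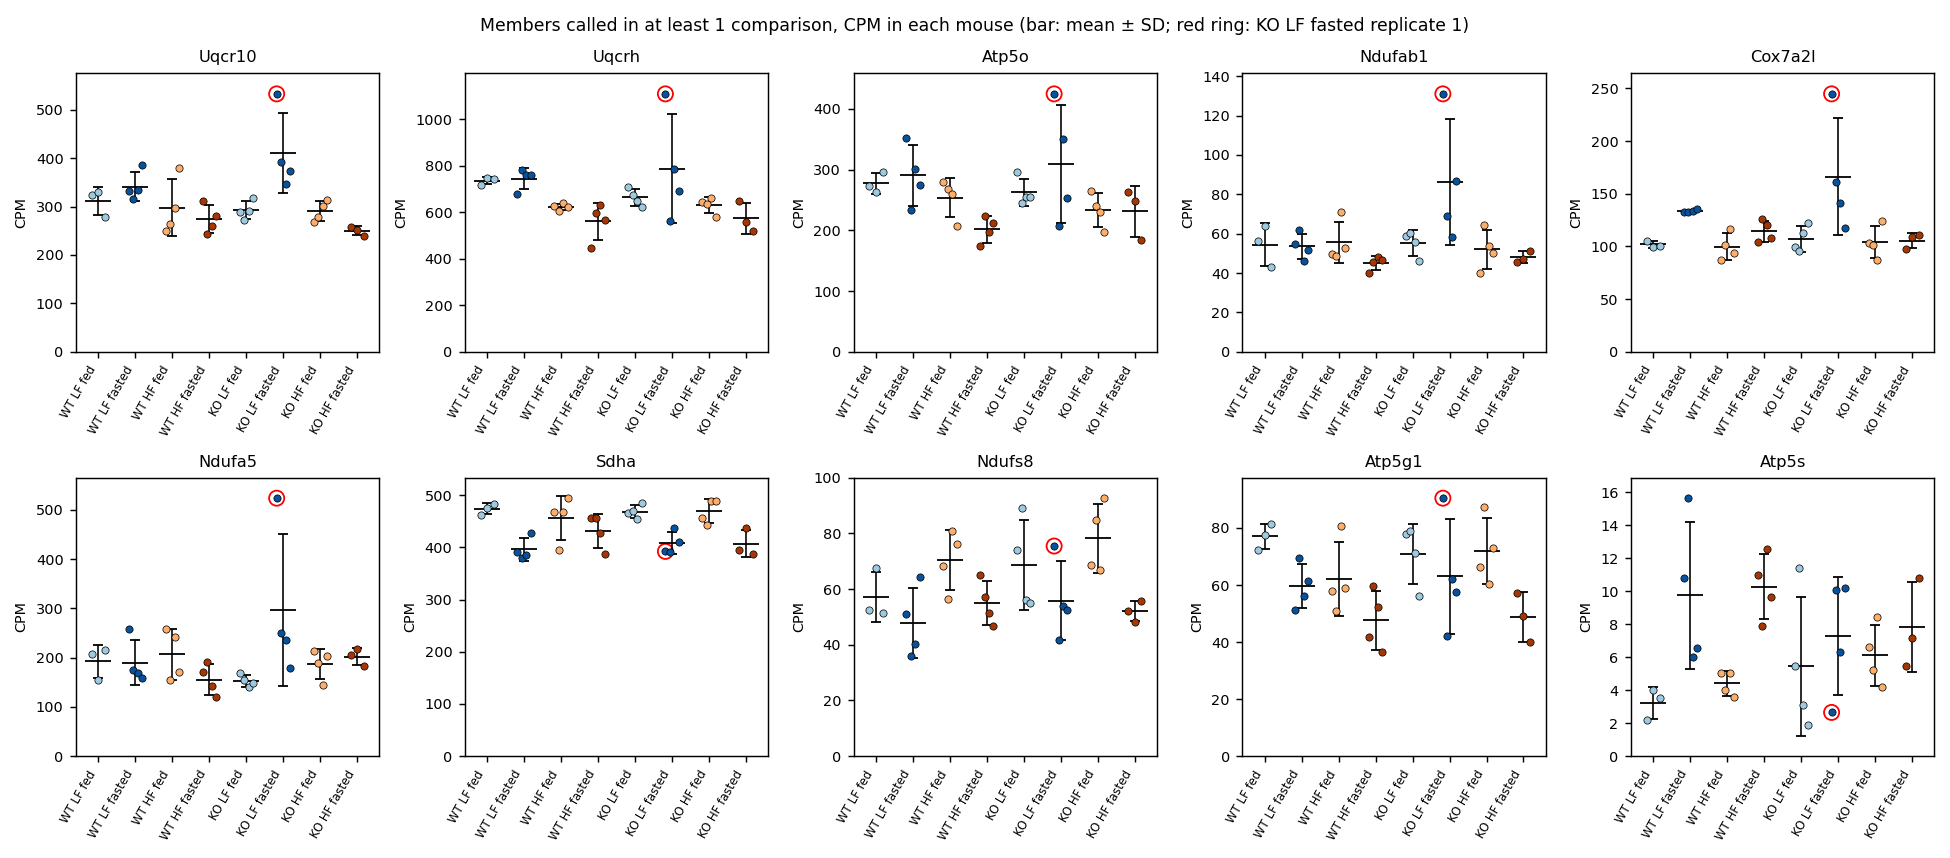
Levels (CPM) of the members called in any comparison, in each of the 30 mice by group, with the group mean and SD; a red ring marks KO LF fasted replicate 1. That library is the highest for Uqcr10, Uqcrh, Atp5o, Ndufab1, Cox7a2l, Ndufa5 and Atp5g1 and among the lower ones for Atp5s.

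Within the strata, fasting raised 4 members in KO LF mice, where 13.8% of all genes were called (7.26% higher), and 1 in WT LF mice, where 7.54% were (3.75% higher). It moved 0 past the threshold in WT HF mice, where 0.424% of all genes were called and 3 of 79 members had an unadjusted p below 0.05 (9.19% of all genes). Without KO LF fasted replicate 1 the WT HF comparison had 8 lower and 1 higher at that unadjusted threshold. The 4 in KO LF mice were Ndufa5 (0.96, SE 0.23, adjusted p = 0.00348), Cox7a2l (0.63, SE 0.16, adjusted p = 0.00655), Ndufab1 (0.64, SE 0.19, adjusted p = 0.0189) and Uqcr10 (0.49, SE 0.15, adjusted p = 0.0195). Ndufa5 was at 169, 154, 140.4 and 149 CPM when fed and at 524, 249.6, 236 and 180 CPM when fasted, so that every fasted mouse was above every fed mouse and KO LF fasted replicate 1 lay far above the rest. Without that library 0 members were called, where 12.4% of all genes were, with 6 higher and 2 lower at an unadjusted p below 0.05. The difference of Ndufa5 was then 0.53 (adjusted p = 0.0517). The members' median in KO LF mice, 0.10, turned to -0.080 with library totals only, when that of all genes was -0.17.

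The WT LF call was Atp5s, at 2.16, 4.02 and 3.55 CPM when fed and at 10.8, 15.6, 6.04 and 6.58 CPM when fasted. All fasted mice were above the fed mice, with a difference of 1.59 (SE 0.49, adjusted p = 0.0356). All 3 fed mice were on lane 8, as were 2 of the 4 fasted mice, and with lane as a term the difference was 1.46 (adjusted p = 0.0748 by edgeR). The adjusted p of Atp5s was 0.0656 with the replicate block, 0.0524 with library totals only, 0.0673 by limma voom and 0.0525 without the 4 libraries with muscle or pancreas markers. The call was also lost without any 1 of the WT LF fed or of the first and second WT LF fasted replicates. Without KO LF fasted replicate 1 there were 2 calls in WT LF mice, Atp5s and Uqcrfs1 (0.44, adjusted p = 0.0393), where 9.28% of all genes were called. In KO HF mice 0 members were called, where 0.527% of all genes were, 63 of 79 were negative, and at an unadjusted p below 0.05 7 were lower and 0 higher, where 3.68% and 3.85% of all genes were. There 15 of 79 (19.0%) were lower in every fasted than in every fed mouse and 0 higher, where 5.2% and 5.35% of all genes were. By DESeq2 and limma voom no member was called in KO HF mice either. In the fit without KO LF fasted replicate 1, 9 members were lower and 0 higher in KO HF mice at an unadjusted p below 0.05.

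The difference between the fasting effects on the HF and LF diets was tested as an interaction. No member was called by edgeR, where 2.46% of all genes were, 7 were lower at an unadjusted p below 0.05 and 0 higher (6.69% and 6.56% of all genes), and DESeq2 called 1. The smallest p was that of Uqcr10, with an interaction of -0.48 (SE 0.15, adjusted p = 0.0919). The fit without KO LF fasted replicate 1 had 6 lower and 0 higher at an unadjusted p below 0.05, and Uqcr10 had -0.41 (adjusted p = 0.104). In KO mice alone the same interaction had 0 called members (0.519% of all genes), 11 lower at an unadjusted p below 0.05 (5.26%) and a median of -0.27, and DESeq2 again called 1. In WT mice the numbers were 0 called (0.19%), 1 lower (3.45%) and a median of -0.090, with 2 lower without KO LF fasted replicate 1. The diet by genotype interaction among fasted mice had 0 called members and 0 called genes (0%), and 8 members were lower at an unadjusted p below 0.05, where 2.01% of all genes were. The fasting by genotype and the diet by genotype interactions over all groups had 0 called members and 0% of all genes called, with 4 and 2 members at an unadjusted p below 0.05 (4.95% and 3.43% of all genes), and 0 by DESeq2 and limma voom. These last 3 interactions again had 0 called members without KO LF fasted replicate 1, with 8, 2 and 5 members at an unadjusted p below 0.05, and the fasting by diet interaction in KO had 0 called and 11 lower. A larger diet effect in KO than in WT mice was therefore not shown.

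No member was called between the genotypes. Acadm was at 8.98 to 37.1 CPM in the 15 KO mice and at 190 to 748 CPM in the 15 WT mice, with no overlap. It was the 1 gene called between the genotypes as the mean over diets and states (0.00865% of all genes). Of the 79 members 0 were called and 0 had an unadjusted p below 0.05 by edgeR, where 2.9% of all genes did, and 0 were called by DESeq2 and limma voom. Both counts were again 0 without KO LF fasted replicate 1. Leaving out the low muscle isoforms, the differences ran from -0.20 for Cox7c (SE 0.17) to 0.18 for Cox5b (SE 0.28), with a median of 0.024 and a median SE of 0.085 over the 79. Cox7c was at 4.85 CPM in KO LF fasted replicate 1 and at 22.2 to 59.4 CPM in the 29 others, and its difference was -0.11 (SE 0.10) without that library.

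The stratum with the most unadjusted differences was LF fasted, where 0 members were called (0.00865% of all genes) and 8 were higher and 0 lower in KO mice, against 3.08% and 2.84% of all genes. Of these 8, 7 belonged to complex I, which holds 38 of the 84 members. The first was Ndufab1 (0.69, SE 0.19), at 54.8, 61.8, 46.1 and 51.6 CPM in WT against 131, 68.8, 58.5 and 86.8 CPM in KO. The groups overlapped at the low end, and the 131 CPM was that of KO LF fasted replicate 1. Without KO LF fasted replicate 1 there were 5, whose complexes are not given. In the other 3 strata 0 members were called, where in each 0.00865% of all genes were, with 1 member at an unadjusted p below 0.05 in LF fed (3.89% of all genes), 0 in HF fed (2.73%) and 2 in HF fasted mice (2.49%), and 0 were called by DESeq2 or limma voom. In the fit without KO LF fasted replicate 1, HF fasted mice had 4 lower and 2 higher in KO. There 57 of 79 members were negative, with a median of -0.080 against -0.0097 over all genes. LF fed mice had 2 higher and 0 lower in that fit, and HF fed mice 0 of either. The genotype comparisons share mice, among them the KO LF fasted mice, with the diet and fasting comparisons above, so that they are not separate evidence.

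**Figure D5:**
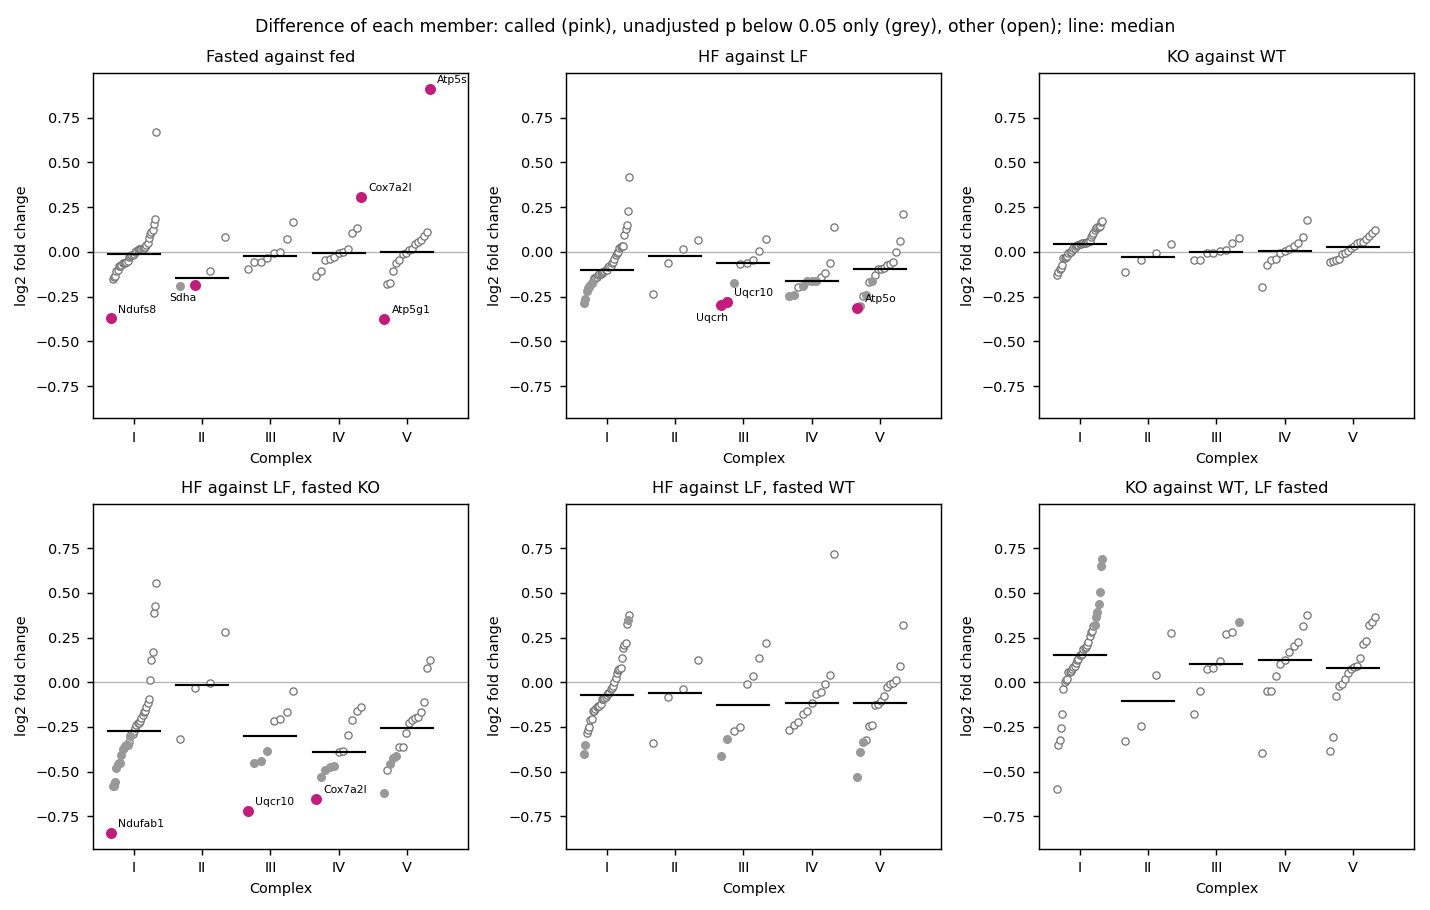
Log2 difference of each of 76 members (without the muscle isoforms Cox6a2, Cox7a1 and Cox8b) by complex for fasted against fed, HF against LF and KO against WT as means over 4 combinations, and for 3 single strata; lines are medians and called members are labelled. Differences between the genotypes stay within a narrow band around 0, and those between the diets in fasted KO mice lie lowest.

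Other genes of the pathway were read from lists of its parts. Of 7 mitochondrially encoded subunits tested, 4 rose on fasting (57.1%, where 9.77% of all genes were called higher) and 0 fell, led by mt-Nd5 (0.34, SE 0.08, adjusted p = 0.000892), mt-Nd1 (0.33, SE 0.08, adjusted p = 0.00215) and mt-Co1 (0.27, SE 0.07, adjusted p = 0.00817). There were 3 that rose without KO LF fasted replicate 1. On the HF diet 2 fell (28.6%, where 1.24% of all genes were called lower), mt-Nd5 (-0.34, adjusted p = 0.00614) and mt-Nd1 (-0.33, adjusted p = 0.00967). Their summed level ranged from 49989 to 93139 CPM over the 30 mice and was highest in a KO LF fasted mouse.

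Of 46 assembly factors 4 rose on fasting and 2 fell (13.0% called, where 18.9% of all genes were), and so many did without KO LF fasted replicate 1. Sco2, a copper chaperone of complex IV, rose by 0.65 (SE 0.10, adjusted p = 1.01e-05), Uqcc3 of complex III by 0.45 (adjusted p = 0.00877) and Ndufaf4 of complex I by 0.35 (adjusted p = 0.0104). Sco2 was also the 1 listed gene outside the members that was called between the diets in fasted KO mice (-0.85, SE 0.22, adjusted p = 0.0322). For Sco2 the difference was -0.69 (adjusted p = 0.0955) without KO LF fasted replicate 1, when mt-Nd1 (-0.67, adjusted p = 0.0250) and the phosphate carrier gene Slc25a3 (-0.56, adjusted p = 0.0490) were called instead. On the diet mean 0 of 46 assembly factors were called, where 3.49% of all genes were.

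Of 22 genes of electron carriers and adenine nucleotide exchange 4 rose on fasting and 3 fell (31.8% called, where 18.9% of all genes were), and 4 rose and 4 fell without KO LF fasted replicate 1. Etfdh, which passes electrons from the acyl-CoA dehydrogenases to ubiquinone, rose by 0.91 (SE 0.13, adjusted p = 2.28e-06). Coq8a, needed for ubiquinone synthesis, had a difference of -0.76 (SE 0.11, adjusted p = 7.72e-07), and Atpif1, the inhibitor of the ATP synthase, one of -0.67 (SE 0.13, adjusted p = 0.000243). On the HF diet 3 of the 22 were called (13.6%, where 3.49% of all genes were), with or without that library. Atpif1 rose by 0.47 (adjusted p = 0.0396) and the uncoupling protein gene Ucp2 by 0.68 (adjusted p = 0.0425), and Cyc1, the cytochrome c1 of complex III, had a difference of -0.26 (SE 0.07, adjusted p = 0.0433).

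Of 16 regulators of respiratory gene transcription 3 rose on fasting and 0 fell (18.8%, where 9.77% of all genes were called higher), Ppara (0.63, SE 0.13, adjusted p = 0.000726), Yy1 (0.28, SE 0.09, adjusted p = 0.0214) and Ppargc1b (0.53, SE 0.19, adjusted p = 0.0475). For Ppargc1b the difference was 0.51 (adjusted p = 0.0672) without KO LF fasted replicate 1, and Tfam, the mitochondrial transcription factor gene, was called in its place (0.24, adjusted p = 0.0241). The coactivator gene Ppargc1a was the 1 of 16 called on the diet mean (6.25%, where 3.49% of all genes were), with -0.54 (SE 0.15, adjusted p = 0.0384). Without that library Gabpa was called as well (-0.48, adjusted p = 0.0486), where 4.51% of all genes were called. No gene of the 4 lists was called between the genotypes.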

How the data were processed

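RNA of crushed freeze-clamped liver was made into Lexogen QuantSeq 3′ libraries. The authors mapped the reads to GRCm38 with HISAT 0.1.5, sorted them with SAMtools 1.2 and counted them per gene with HTSeq 0.6.1p1 in union mode, and deposited whole-number counts without normalization. Symbols came from GENCODE vM21, which held 19913 of 20076 identifiers. The 163 others carried 0.125% of the counts.

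Counts of 30 libraries were filtered with filterByExpr, scaled by TMM and fitted in one model of the 8 groups with edgeR 4.0.16 (R 4.3.3, robust quasi-likelihood F test, Benjamini-Hochberg adjustment over all 11566 genes tested). DESeq2 1.42.0, limma 3.58.1 voom, other scalings, no filter, 31 or 32 libraries, lane and replicate terms, and fits without single libraries were alternatives. The test was tried on simulated counts. Groups, replicates and lanes came from the labels. SE values and p-values measure the spread between mice, each of which gave 1 library, and no pair within a group agreed within sampling noise (smallest chi-square per gene 4.17). Depth limits low members: 7 of the 79 tested had a median count below 20.

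The members, lists and comparisons were chosen with earlier results of these data known. Named are a list of core members and muscle isoforms, up to 5 called members per direction and comparison, the extreme fasting differences per complex, and up to 3 called genes per other list. Cox6b1, Cox7c, Atp5l, Atp5h and the examples given for KO LF fasted replicate 1 were chosen after their values were seen. The values of 1 member are not reported here, although counts over members include it. Shared windows are 50-base stretches of the last 300 bases of a gene's transcripts that occur in another gene's transcripts.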

Additional observations from a re-analysis of the deposited data

Results flagged for a closer look

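Of 108 groups of 4 mice examined for a mouse far from the other 3 (called and muscle-isoform members and the complex sums), 10 held one. Chance gives about 1 in 20 groups for normally distributed values, a rate that does not apply to the muscle isoforms near 0, which made up 8 of the 10. For the summed CPM of complex II, WT HF fed replicate 2 had 1235 CPM and its group mates 1392 to 1415 CPM. For Ndufa5, WT LF fasted replicate 1 had 257 CPM and the others 158 to 174 CPM.

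The other 8 were muscle isoforms of complex IV. In KO HF fed replicate 1, Cox6a2 was at 38.8, Cox7a1 at 19.2 and Cox8b at 28.3 CPM, and in WT HF fed replicate 4 they were at 23.5, 8.53 and 13.2 CPM. Cox6a2 also stood apart in WT HF fasted replicate 4, at 10.8 CPM, and in KO LF fasted replicate 4, at 1.17 CPM where the 3 others had 0. The summed skeletal muscle markers of the first 3 of these libraries were 1310, 709 and 291 CPM, and their part in the isoform levels was not tested.

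KO HF fasted replicate 4, which entered no comparison, had Cox6a2 at 2106 CPM, Cox7a1 at 814 CPM and Cox8b at 773 CPM, where the 30 libraries compared reached 38.8, 19.2 and 28.3 CPM.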

How the results depend on the processing

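Under library totals as the only scaling, 11 members were called for fasting, 0 for diet, 0 for fasting in WT LF, 2 for fasting in KO LF and 1 for HF against LF in fasted KO mice. The mean sums then were 19897 CPM in KO LF fasted and 20071 CPM in WT LF fed. With all 32 libraries the counts were 2, 0, 0, 0 and 2, the last pair higher instead of lower, and the mean sums 26456 CPM in KO HF fasted and 18725 CPM in WT LF fed, because the heart-marked library joined the first group and WT LF fed replicate 2 the second. With 31 libraries diet called 1. DESeq2 called 9 for diet, 8 for HF against LF in fasted KO mice, and 1 each for the fasting by diet interaction and the same in KO, and limma voom 0 for fasting in WT LF. Without the 4 libraries with muscle or pancreas markers diet called 0 and fasting in WT LF 0. Within lane 7 fasting called 0, and with lane as a term fasting in WT LF called 0, where all 3 WT LF fed mice were on lane 8. A fit of only the 2 groups compared called 0 for fasting in KO LF and 0 for HF against LF in fasted KO mice. These counts stand without the share of all genes called under each setting. They therefore do not by themselves set the members apart. Where no cause is given, the cause was not tested.

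With 1 replicate number or 1 library left out, the count ranged from 1 to 8 for fasting (8 without KO LF fasted replicate 1), from 0 to 5 for diet, from 0 to 2 for fasting in WT LF, from 0 to 6 for fasting in KO LF and from 0 to 5 for HF against LF in fasted KO mice. Where a group kept 1 mouse fewer, the model shared its spread with the other groups. The remaining comparisons, other than both interactions named for DESeq2, had 0 called members under every alternative run. No called member changed its direction in the comparison that called it under any alternative run.

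The replicate numbers are not stated to pair mice. Over 98 pairs of mice with the same number in different groups, the median correlation of residuals was 0.00603, and 2 pairs exceeded 0.1. Over 295 pairs with different numbers in different groups it was -0.00207, and 14 pairs exceeded 0.1. With the replicate block, fasting in WT LF called 0 members, and no other count moved by more than 1.5 times. Depth limited the low members most, as 7 of 79 tested had a median count below 20.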
